A study of Mus musculus with 6 samples.

Results

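The pyruvate dehydrogenase complex of the mitochondrion converts pyruvate, the end product of glycolysis, into acetyl-CoA for the citrate cycle, and so links both pathways in neurons and glia. Its catalytic core holds a pyruvate dehydrogenase made of alpha subunits (Pdha1) and beta subunits (Pdhb), a dihydrolipoamide acetyltransferase (Dlat) and a dihydrolipoamide dehydrogenase (Dld). Kinases (Pdk1, Pdk2, Pdk3 and Pdk4) phosphorylate the alpha subunit and switch the complex off, and phosphatases (Pdp1 and Pdp2) switch it on again. Pdk4 is the kinase known in muscle, liver and heart for its induction by fasting, glucocorticoids and fatty acids.

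These 10 genes were taken by name from a hippocampal gene table of 54393 genes, and all 10 were found, at 1 row each, and passed the filter on low values, which asked for 1 or above in 3 libraries of the 6. The table compares wild-type mice with miR-301a-/- mice, that is, mice with both copies of the microRNA gene Mir301 disrupted. Each genotype had 3 libraries of poly(A) RNA from hippocampus, all from untreated C57BL/6 mice aged 6 to 8 weeks, and no other allele or agent is named for either group. How the allele was made, in which cells it acts and whether the groups were littermates is not stated in the sources used here. The labels do not tell whether libraries came from separate animals, so all errors and p-values below measure the spread between libraries, which may be partly technical. Libraries are named by genotype and title code: wild type 1-1, 2-1 and 2-2, and knockout 1-1, 2-2 and 3-1.

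The set was chosen from earlier results of these same data, in which the value of Pdk4 differed between the genotypes. The differences between genotypes in the 10 genes are therefore given as a description, with no test of their own. Levels of the genes relative to each other, their 3' untranslated regions and the other genes of the pathway were not used in that choice. The lists of other pathway genes were still drawn up with earlier results of these data known.

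Values are FPKM-like, that is, they were read as scaling with reads per length and per library depth. Levels can be compared between genes only as far as the length used for each gene, which is not given, is right. The steps between the values of short genes (160 nt or less) imply depths of about 16900000 to 28200000 reads per library. This holds if the step is 1 read over 1 base of effective length. At these depths Pdk4 stood for at most 198.3 to 606.8 reads per library and Pdp2 for at most 177.5 to 331.8, whereas Pdhb stood for at most 6193 to 10409. Neuronal markers such as Snap25 (916.2 ± 34.3 in wild type and 930.3 ± 110.7 in knockout, SD, n = 3 each) and hippocampal subfield markers such as Wfs1 (47.9 ± 16.1 and 45.8 ± 7.99) were present in both genotypes; both were picked as examples after their values were seen. Mir301 itself stood at 0 in each wild-type and each knockout library, so the table does not check the genotype labels. Its host gene Ska2 was at 5.70 to 6.08 in wild type and 5.17 to 6.14 in knockout.

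The seed of miR-301a-3p (bases 2 to 8, in capitals) is the stretch through which it pairs with messenger RNAs. It is printed here with miR-130a-3p and miR-130b-3p, members of the same family that share the seed and are encoded at other loci. The family also holds miR-301b-3p. The sequences are from RefSeq on GRCm38.p6.
mmu-miR-301a-3p, chr11:87113054-87113076, plus strand: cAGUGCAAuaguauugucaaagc
mmu-miR-130a-3p, chr2:84741116-84741137, minus strand: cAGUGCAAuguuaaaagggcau
mmu-miR-130b-3p, chr16:17124071-17124092, minus strand: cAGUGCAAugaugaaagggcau

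Matches to this seed were present in the 3' untranslated regions of 2 members, both of them kinases. The longest annotated 3' untranslated region of each gene (GENCODE M21, GRCm38) was searched on the transcript's own strand for the heptamer TTGCACT, which pairs with bases 2 to 8, and for the hexamer TGCACT within it. Pdk1 held 3 heptamers and 1 further hexamer in 3734 nt, and Pdk4 held 1 heptamer and 1 further hexamer in 2098 nt. The other 8 members held neither, in 340 nt (Pdhb) to 3907 nt (Pdp2). Of all tested genes with an annotated 3' untranslated region, 12.2% held the heptamer and 35.3% the hexamer. Among genes whose region was within 25% of the same length, the heptamer occurred in 23.3% for Pdk1 and 14.3% for Pdk4. The hexamer occurred in 64.1% and 45.7% of the same genes. The matches are shown with their flanks, the match in capitals.
Pdk1 heptamer, chr2:71901877-71901905, plus strand: tattcagtgtaTTGCACTtactagctttc
Pdk1 hexamer, chr2:71902921-71902948, plus strand: ttctccacacgTGCACTgtgcacatgcg
Pdk1 heptamer, chr2:71902980-71903008, plus strand: agccaggtgtcTTGCACTctcaaccatct
Pdk1 heptamer, chr2:71903020-71903048, plus strand: ttgaggcaggcTTGCACTgtagatagcct
Pdk4 heptamer, chr6:5484828-5484856, minus strand: gctttttatgtTTGCACTcaaaaagccag
Pdk4 hexamer, chr6:5484769-5484796, minus strand: aatgttaaataTGCACTgacctcagaaa
A match is a string of letters in an annotated transcript, and whether any of them is bound in hippocampus was not measured.

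The level of each gene in the hippocampus was examined next, over all 6 libraries. The subunits of the pyruvate dehydrogenase itself were the highest, Pdhb with a mean value of 98.0 ± 2.36 and Pdha1 with 88.2 ± 4.72 (SD, n = 6 each). Pdk2, the most abundant kinase, followed at 52.7 ± 4.25, close to Dld at 52.0 ± 3.07 and above Dlat at 39.6 ± 5.67. The main phosphatase was Pdp1 at 21.4 ± 1.05, above Pdk3 at 16.9 ± 1.14 and Pdk1 at 12.4 ± 0.515. Pdk4, at 4.16 ± 1.48, and Pdp2, at 1.87 ± 0.187, were the lowest.

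In this order, 8 of the 9 neighbouring pairs stood the same way round in all 6 libraries (exact sign-flip permutation test on log2(value + 1), two-sided, p = 0.03125, adjusted over the 9 pairs 0.0352, the smallest p that 6 libraries allow). Pdk2 and Dld did not differ beyond their spread: Pdk2 was the higher in 4 of 6 libraries (exact permutation p = 0.531, adjusted 0.531). The smallest step that held in every library was from Pdhb to Pdha1, at a ratio of 1.04 to 1.18. The test measures how steadily the order of values repeats between libraries. An error common to all libraries, such as in the length used for a gene, does not enter it, so small steps may not be true differences in transcript number. The step from Pdk1 to Pdk4 had a ratio of 2.02 to 4.41.

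Pdk4 is the member in which the genotypes differed most (ENSMUSG00000019577.6, GRCm38 chromosome 6, 5483351 to 5496309, minus strand). Its value was 2.94, 3.00 and 2.78 in wild type 1-1, 2-1 and 2-2, and 6.39, 5.05 and 4.82 in knockout 1-1, 2-2 and 3-1. Every knockout library lay above every wild-type library, and the wild-type libraries lay close together, while knockout 1-1 stood above the other knockout libraries. The means were 2.91 ± 0.111 and 5.42 ± 0.847 (SD, n = 3 each), a ratio of 1.87 and a log2 difference of 0.71 on the log2(value + 1) scale (SE 0.12). That scale understates the change of a gene at this level: the log2 ratio of the means was 0.90, and the authors' deposited table also gave 0.90. Of the 14708 genes tested, 247, Pdk4 included, had an absolute log2 difference as large as that of Pdk4 or larger.

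Pdk1, the kinase known for its induction by hypoxia (ENSMUSG00000006494.11, chromosome 2, 71873224 to 71903858), was at 12.1, 13.2 and 12.3 in wild type 1-1, 2-1 and 2-2, and at 12.9, 11.9 and 12.03 in knockout 1-1, 2-2 and 3-1. The groups overlapped, with a log2 difference of −0.03 (SE 0.07).

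Pdk2 (ENSMUSG00000038967.13, chromosome 11, 95026258 to 95041354) is the kinase that supplies most of the kinase transcripts here. It was at 52.2, 48.8 and 48.9 in wild type 1-1, 2-1 and 2-2, and at 59.0, 50.6 and 56.9 in knockout 1-1, 2-2 and 3-1. Knockout 1-1 and 3-1 were above every wild-type library and knockout 2-2 fell within their range (log2 difference 0.15, SE 0.07). Pdk2 lies 7.91 Mb from Mir301 and is the only member on the same chromosome. An antisense gene, Gm11513, overlaps it and reached a value of 0.614 at most.

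Pdk3, the X-linked kinase (ENSMUSG00000035232.8, chromosome X, 93764607 to 93832201), was at 18.1, 15.6 and 17.2 in wild type 1-1, 2-1 and 2-2, and at 18.2, 15.8 and 16.2 in knockout 1-1, 2-2 and 3-1. The groups overlapped (log2 difference −0.02, SE 0.09).

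**Figure D1:**
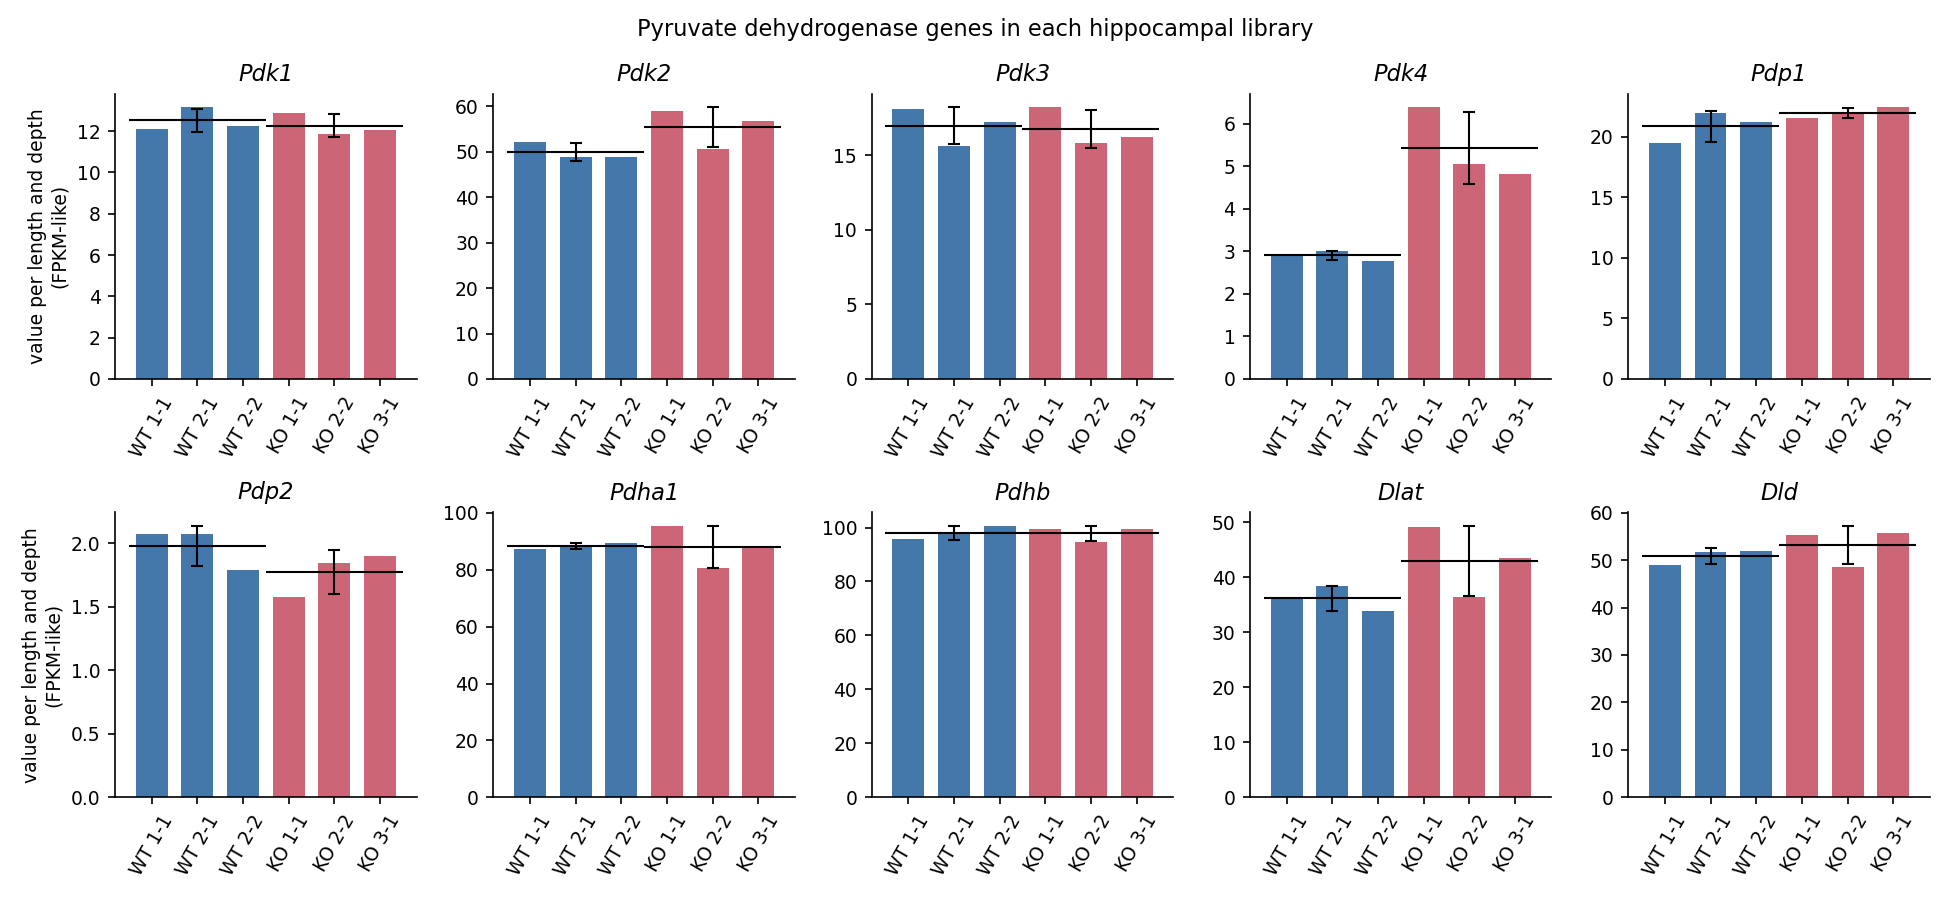
Value of each member (FPKM-like, linear axis from 0, own scale per panel) in each library as a bar, wild type (WT) in blue and knockout (KO) in red; lines are group means and error bars the SD of 3 libraries. Pdk4 is the only panel in which all knockout libraries lie above all wild-type libraries.

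Pdk4 made up a small share of the kinase transcripts in both genotypes. Of the summed values of the 4 kinases, it took 3.44%, 3.72% and 3.43% in wild type 1-1, 2-1 and 2-2, and 6.62%, 6.06% and 5.37% in knockout 1-1, 2-2 and 3-1. Pdk2 took 60.2% to 61.2% in wild type and 60.7% to 63.2% in knockout, so the most abundant kinase was the same in all 6 libraries. Pdk3 took 19.4% to 21.2% and 18.0% to 19.0%, and Pdk1 14.2% to 16.3% and 13.4% to 14.2%. The summed kinase value was 82.4 ± 2.57 in wild type and 89.9 ± 6.55 in knockout (SD, n = 3 each), with knockout 2-2 inside the wild-type range.

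**Figure D2:**
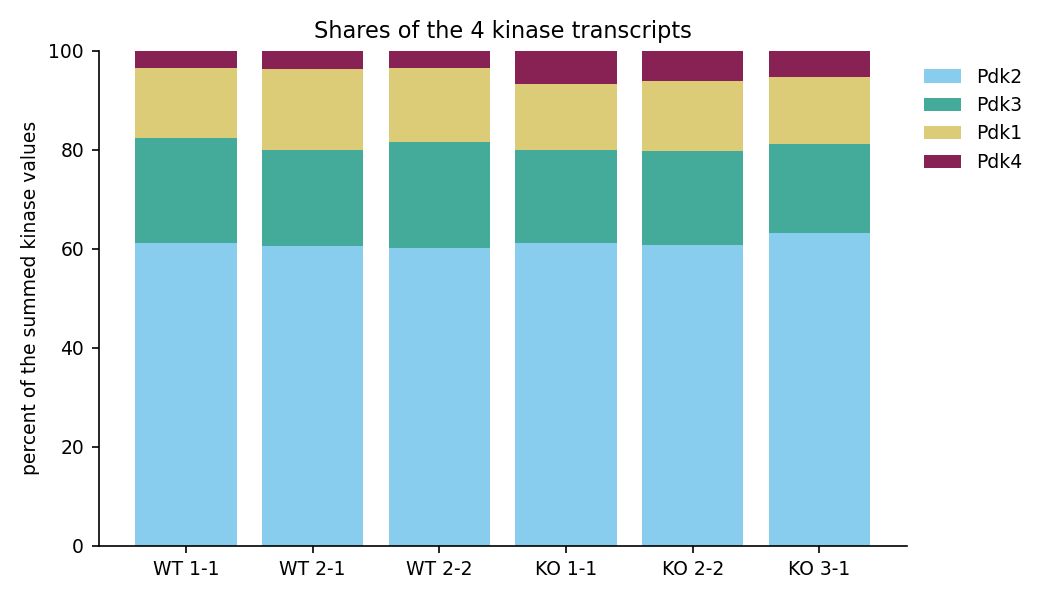
Percent of the summed values of Pdk1, Pdk2, Pdk3 and Pdk4 that each kinase takes, by library (WT wild type, KO knockout). Pdk2 takes 60.2% to 63.2% throughout, and Pdk4 takes 3.43% to 3.72% in wild type and 5.37% to 6.62% in knockout.

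The phosphatases overlapped between genotypes. Pdp1, the main phosphatase (ENSMUSG00000049225.14, chromosome 4, 11958184 to 11966452), was at 19.4 to 21.9 in wild type and 21.6 to 22.4 in knockout (log2 difference 0.07, SE 0.07). Pdp2 (ENSMUSG00000048371.8, chromosome 8, 104591451 to 104599026) was at 1.79 to 2.07 in wild type and 1.57 to 1.90 in knockout (log2 difference −0.10, SE 0.12). Pdp1 supplied 90.4% to 93.2% of the summed phosphatase values in the 6 libraries.

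Among the subunits, those of the pyruvate dehydrogenase itself had almost equal means in both genotypes. Pdha1, the alpha subunit that the kinases phosphorylate (ENSMUSG00000031299.10, chromosome X, 160122209 to 160138413), was at 87.3, 88.2 and 89.4 in wild type 1-1, 2-1 and 2-2, and at 95.4, 80.6 and 88.3 in knockout 1-1, 2-2 and 3-1. The wild-type libraries lay within the range of the knockout libraries, and the log2 difference was −0.01 (SE 0.07). Map3k15 overlaps Pdha1 on the opposite strand and reached a value of 1.08 at most. Pdhb (ENSMUSG00000021748.9, chromosome 14, 8165996 to 8173025) was the steadiest member, at 94.7 to 100.7 over all 6 libraries, a coefficient of variation of 2.41%.

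Dlat, which carries the acetyl group on its lipoyl arms (ENSMUSG00000000168.9, chromosome 9, 50634633 to 50659780), varied most after Pdk4. It was at 36.4, 38.3 and 33.9 in wild type 1-1, 2-1 and 2-2, and at 49.2, 36.5 and 43.4 in knockout 1-1, 2-2 and 3-1. Knockout 1-1 and 3-1 were above every wild-type library, and knockout 2-2 was inside their range (log2 difference 0.24, SE 0.11). Dld (ENSMUSG00000020664.10, chromosome 12, 31331277 to 31351453), which reoxidizes the lipoyl arms and serves the related complexes as well, was at 48.9 to 51.9 in wild type and 48.4 to 55.7 in knockout (log2 difference 0.06, SE 0.07).

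Over the 10 members, 5 log2 differences were above 0 and 5 below, with a median of 0.03, beside a median of −0.00383 over all tested genes. By limma with Benjamini-Hochberg adjustment over all 14708 genes, 0 of the 10 members were called at an adjusted p under 0.05, where 16 genes in all were (0.109%). At an unadjusted p under 0.05 limma had 1 member, Pdk4, where 5.72% of all tested genes passed. The groups did not overlap for 1 member, again Pdk4, and for 11.4% of all tested genes. The authors' deposited table gave 0 of the 10 an adjusted p under 0.05, and 0 an unadjusted p under 0.05. The lowest unadjusted p of the members there was that of Pdk4 (0.083, from the authors' unnamed test). The share of all genes past these thresholds in the deposited table was not computed. These counts are printed for scale only, since the set was chosen with this comparison in view.

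**Figure D3:**
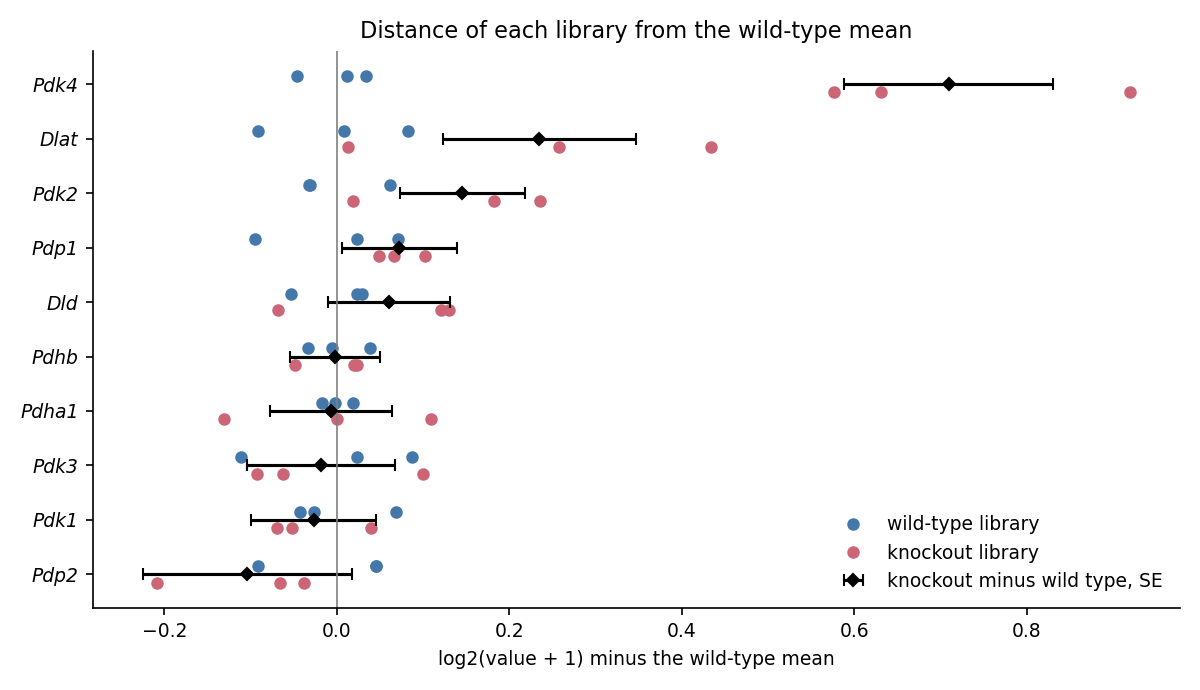
Each library's log2(value + 1) minus the wild-type mean for each member (blue wild type, red knockout, 3 libraries each), with the difference between the group means as a diamond and its SE from limma. The diamonds run from −0.10 for Pdp2 to 0.71 for Pdk4, and the groups overlap in all members but Pdk4.

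Markers of other cell types were read beside Pdk4, because hippocampal tissue can carry choroid plexus, ependyma, vessels and blood. In such bulk tissue, a change in the number of cells of a type and a change in RNA per cell cannot be told apart. The summed value of 8 choroid plexus markers was 7.47 to 8.89 in wild type, and 21.1, 17.9 and 9.32 in knockout 1-1, 2-2 and 3-1. The groups of this sum did not overlap, as for Pdk4, and its order among the knockout libraries was also that of Pdk4. Only 3 of the 8 markers passed the filter on low values, and none was listed at 0 in all libraries. Ttr, the thyroid hormone carrier of the choroid plexus, named after its values were seen, was at 1.68, 1.41 and 2.57 in wild type 1-1, 2-1 and 2-2, and at 12.2, 10.7 and 2.74 in knockout 1-1, 2-2 and 3-1. The other tested markers of the list overlapped between genotypes: Kl was at 3.08 to 4.30 in wild type and 3.80 to 5.15 in knockout, and Folr1 at 0.230 to 2.30 and 1.01 to 1.74. Most of the difference in the sum was thus that of Ttr.

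Knockout 1-1 was also the highest library for 6 ependymal markers, with a sum of 53.1 against 21.5 to 33.4 in wild type, and for 5 erythroid markers, with 441.4 against 158.9 to 294.6. It was the highest of the 6 libraries for neuronal (2245), astrocyte (814.9) and microglial (231.6) markers as well, for the summed members (419.2), and for the total of all values (628334 against 553879 to 614538 in the others). Without knockout 1-1 the log2 difference of Pdk4 was 0.60. In knockout 2-2 and 3-1 the ependymal sums were 23.1 and 32.9 and the erythroid sums 214.9 and 228.3, all within the wild-type range.

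Sums of markers of astrocytes (696.8 to 749.6 in wild type, 705.0 to 814.9 in knockout), oligodendrocytes (2536 to 3819 and 2108 to 3149), endothelium (76.3 to 102.9 and 84.4 to 106.5) and mural cells (52.0 to 68.6 and 58.6 to 63.3) overlapped between genotypes. So did those of neurons, hippocampal subfields, microglia, meningeal fibroblasts, striatum and thalamus. A sum can hide single markers whose groups did not overlap. In these lists they were, by mean in wild type and knockout, Gja1 (71.6 and 85.1), Rgs5 (17.0 and 21.9), Gad2 (33.4 and 39.1), P2ry12 (23.8 and 29.7) and Lum (1.09 and 1.66). Gfap, an astrocyte marker like Gja1, was lower in knockout without overlap (169.2 and 138.4). For scale, the groups did not overlap for 11.4% of all tested genes, and the share among the marker genes was not computed. By limma, 0 genes of the 13 marker lists were called, beside 0.109% of all tested genes. The part of any of these cell types in the value of Pdk4 was not tested.

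**Figure D4:**
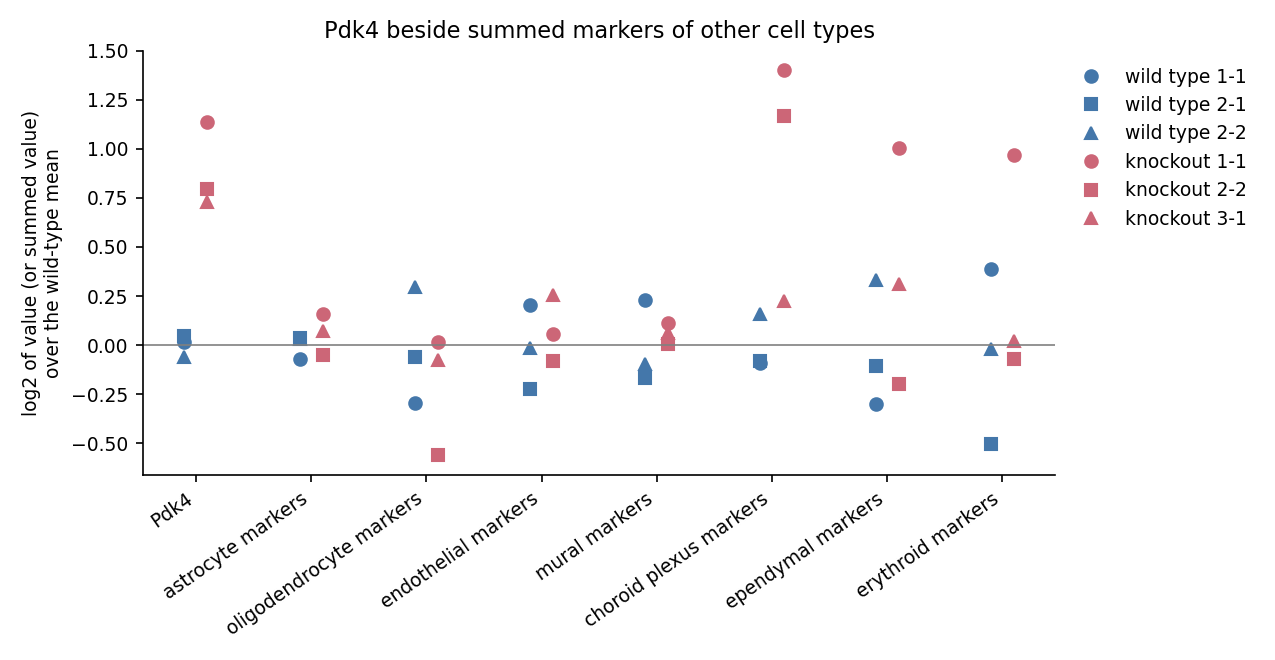
Log2 of the Pdk4 value, or of the summed value of each marker list, over its wild-type mean, by library (symbols). Choroid plexus markers are the only sums shown in which all knockout libraries (9.32 to 21.1 before the log) lie above all wild-type libraries (7.47 to 8.89), as for Pdk4.

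Other genes of the pathway were read from 12 lists, with 126 of their 136 genes tested. By limma, 0 of the 126 were called in either direction. At an unadjusted p under 0.05 there were 9, or 7.14%, and the groups did not overlap for 14, or 11.1%, both near the shares over all genes given above. Differences were above 0 for 68 and below 0 for 58, with a median of 0.00317. All values named below are means ± SD of 3 libraries, wild type first, and none of these genes was called (limma adjusted p of 0.510 or more).

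The remaining parts of the complex overlapped between genotypes. Pdhx, which binds Dld to the core, was at 20.6 ± 1.19 and 18.6 ± 0.822 (log2 difference −0.14), and Pdpr, the regulatory subunit of the phosphatase, at 8.65 ± 1.34 and 9.04 ± 0.520 (0.06). Pdha2, the testis form of the alpha subunit, was listed at 0 in all libraries. For the cofactors, 10 of 13 genes of lipoate attachment had a log2 difference below 0 (median −0.06). Ndufab1, the mitochondrial acyl carrier protein, was at 137.4 ± 10.9 and 144.5 ± 15.0, and Isca1, an iron-sulfur assembly factor, at 98.0 ± 3.39 and 92.8 ± 6.27. Glrx5, another iron-sulfur factor, was at 32.9 ± 2.08 and 30.3 ± 4.32, and Mcat, of mitochondrial fatty acid synthesis, at 12.6 ± 3.10 and 11.3 ± 0.472. For thiamine supply, all 3 tested genes had a log2 difference below 0 (median −0.13). Of these, Slc19a2, a thiamine transporter, was at 6.08 ± 0.807 and 5.37 ± 0.105, and its groups overlapped.

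Pyruvate enters the mitochondrion through a carrier of Mpc1 and Mpc2. Mpc1 was at 116.6 ± 12.7 and 110.2 ± 8.43 (log2 difference −0.08), and Mpc2 at 92.4 ± 2.34 and 83.9 ± 5.45 (−0.14). Of 11 genes for other fates of pyruvate and for lactate transport, 7 were above 0 and 4 below. The lactate dehydrogenases Ldhb (269.3 ± 15.6 and 253.8 ± 15.1) and Ldha (201.2 ± 9.20 and 192.7 ± 6.51) were the highest of them. Gpt2, the mitochondrial alanine transaminase, had groups that did not overlap (27.4 ± 0.510 and 33.1 ± 3.01, log2 difference 0.26, limma adjusted p = 0.827). Slc16a3, a lactate exporter, was at 1.98 ± 0.845 and 1.39 ± 0.936.

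For the complexes related to this one, several of which share Dld, the directions were even. Of 12 genes of the related oxoacid dehydrogenases and of glycine cleavage, 6 were above 0 and 6 below, with a median of −0.02. Ogdh and Dlst, subunits of the oxoglutarate dehydrogenase, were at 61.2 ± 1.25 and 62.2 ± 2.00, and at 50.1 ± 1.76 and 50.3 ± 1.93. Dbt, of the branched-chain complex, was at 8.67 ± 0.777 and 9.48 ± 0.276, and Amt, of glycine cleavage, at 11.4 ± 2.45 and 13.3 ± 2.08.

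The pathways before and after the complex had medians close to 0. Of 17 glycolysis genes, 13 were above 0 and 4 below, with a median of 0.02. Gapdh was at 1686 ± 64.2 and 1577 ± 158.7 and Aldoa at 1341 ± 42.2 and 1365 ± 105.5. Pfkl, a phosphofructokinase, had groups that did not overlap (73.5 ± 5.54 and 82.5 ± 2.83, log2 difference 0.17, limma adjusted p = 0.874), and Slc2a1, the glucose transporter of vessels and glia, was at 26.4 ± 2.73 and 30.3 ± 2.50. Of 14 citrate cycle genes, 5 were above 0 and 9 below (median −0.02), with Mdh2, the mitochondrial malate dehydrogenase, at 197.9 ± 1.95 and 194.7 ± 5.45. Sdhb, of succinate dehydrogenase, was at 106.7 ± 3.77 and 97.7 ± 6.44 with groups that did not overlap, and Fh1 at 37.4 ± 2.91 and 34.0 ± 1.73.

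Among the genes of the 12 pathway lists, the largest log2 differences were those of Hif3a, of the glucocorticoid response list, and Ppargc1a, of the fatty acid oxidation and PPAR list. Whether either acts on Pdk4 here was not tested. Of 16 tested glucocorticoid response genes, a list that overlaps one examined earlier in these data, 10 were above 0 and 6 below (median 0.06). Hif3a was at 1.31 ± 0.204 and 2.62 ± 0.313 (log2 difference 0.65, limma adjusted p = 0.510), and Fkbp5, a chaperone of the glucocorticoid receptor, at 19.2 ± 1.10 and 23.2 ± 2.68 (0.26, limma adjusted p = 0.838). Of the same list, named after their values were seen because their groups did not overlap either, Zbtb16 was higher in knockout (14.5 ± 0.975 and 17.3 ± 0.370, log2 difference 0.24), while Ddit4 (52.4 ± 2.67 and 46.3 ± 2.83, −0.18) and Per1 (23.6 ± 0.617 and 21.2 ± 1.19, −0.15) were lower. The metallothioneins Mt1 (846.7 ± 79.1 and 852.3 ± 139.2) and Mt2 (499.9 ± 70.0 and 556.3 ± 101.7) overlapped between genotypes.

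Of 16 tested genes of fatty acid oxidation and PPAR signalling, 11 were above 0 and 5 below (median 0.01). Ppargc1a, a coactivator of oxidative metabolism, was at 8.84 ± 1.01 and 13.2 ± 1.40, with groups that did not overlap (log2 difference 0.53, limma adjusted p = 0.520). Angptl4, a target of PPAR, was at 1.03 ± 0.266 and 1.42 ± 0.392. The most abundant of the list, Fabp3 and Cpt1c, were at 71.3 ± 3.84 and 66.9 ± 3.88, and at 42.0 ± 1.88 and 47.8 ± 4.70.

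Of 12 tested genes of insulin and FOXO signalling, 8 were above 0 and 4 below (median 0.03). Igf1r, the receptor of insulin-like growth factor, was at 6.32 ± 0.382 and 8.42 ± 1.23, with groups that did not overlap (log2 difference 0.36, limma adjusted p = 0.832). Foxo1, a transcription factor that insulin restrains, was at 5.84 ± 0.509 and 6.48 ± 1.34, Foxo6 at 16.9 ± 1.91 and 17.4 ± 0.918, and Sesn1 at 23.3 ± 0.780 and 23.1 ± 2.48. Of 8 tested hypoxia response genes, 4 were above 0 and 4 below. Bnip3 was at 69.1 ± 3.50 and 69.6 ± 9.10, Ndrg1 at 39.2 ± 4.48 and 33.6 ± 3.98, and Egln3 at 1.83 ± 0.372 and 2.11 ± 0.0953.

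**Figure D5:**
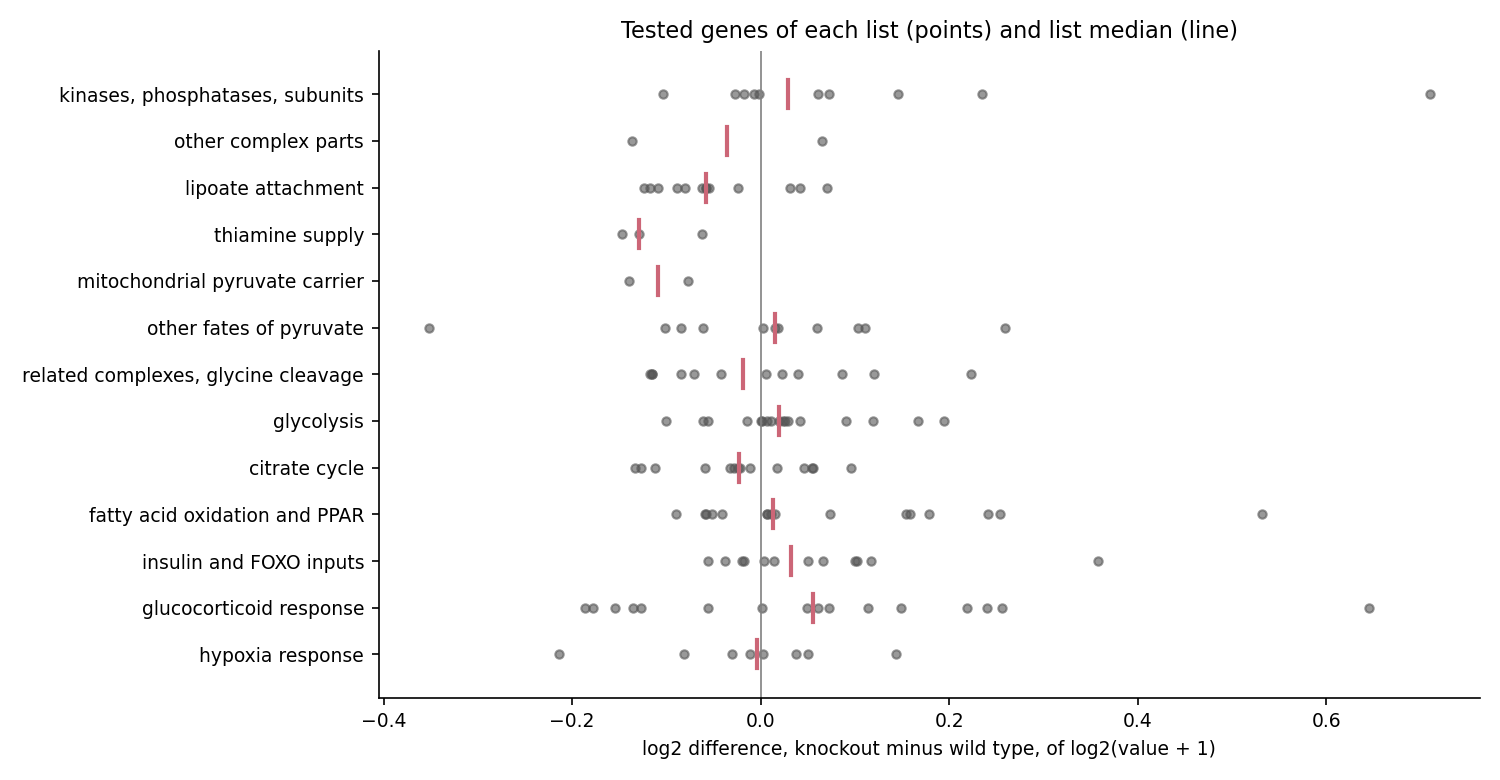
Log2 difference, knockout minus wild type, of each tested gene (points) on the log2(value + 1) scale, by list, with the list median as a red line. The list medians run from −0.13, for thiamine supply, to 0.06, for the glucocorticoid response. Pdk4 (0.71), Hif3a (0.65) and Ppargc1a (0.53) lie farthest to the right.

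The genes whose pattern over the 6 libraries was most like that of Pdk4 were found by Pearson correlation of log2(value + 1), among genes with a mean value of 5 or more. The libraries are those in which Pdk4 was chosen, so the likeness largely restates the distance between the groups, and no p is given. The highest was Gm22300, a small nucleolar RNA (r = 0.998), listed at 0 in every wild-type library and at 20.5, 6.56 and 5.65 in knockout 1-1, 2-2 and 3-1. It passed the filter and the minimum mean only through the knockout libraries, so its place at the top was favoured by that choice. The step read as 1 read over 1 base of effective length was 37.0, 59.0 and 50.8 in knockout 1-1, 2-2 and 3-1. The values of Gm22300 lie below these steps, so for a short RNA they may rest on very few reads. Gm22300 was followed by Klhl3 (r = 0.985), Ablim1 (0.985), Kcnh1 (0.982) and Nmt2 (0.978). Klhl3, an adaptor of a ubiquitin ligase, was at 13.2 ± 0.111 in wild type and 15.0 ± 0.687 in knockout, and Ablim1, an actin-binding protein, at 17.3 ± 0.599 and 20.8 ± 0.742. Kcnh1, a potassium channel, was at 7.58 ± 0.241 and 8.73 ± 0.405, and Nmt2, an N-myristoyltransferase, at 25.1 ± 0.391 and 27.3 ± 0.787 (SD, n = 3 each). None of these 5 was called by limma.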

How the data were processed

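Poly(A) RNA from hippocampus was sequenced in 3 wild-type and 3 knockout libraries, grouped by title and genotype label. The deposited table names no unit; its values were read as FPKM, scaled by the authors for length and depth, because columns do not share a total and low values move in regular steps. Per the submitters' processing notes, HISAT2 2.1.0, HTSeq, bcl2fastq and the build mm10 belong to the processing, with no step given for each. The series' design text names BWA, ANOVA, TopHat and Cufflinks instead, and which of these tools made the table is not stated. Strand use in counting, and the handling of reads shared between near-identical genes, are not given in the sources used here. The authors' deposited log2 fold changes and p-values come from a test that is not named.

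The implied depth is the step that explains most values above 0 in genes of 160 nt or less (91.5% to 98.6% of them). It gives the largest number of reads behind a value, taking the full exonic length (GENCODE M21, GRCm38). No counting interval was computed.

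A pseudocount of 1 was added before taking log2. A genotype model was then fitted by limma 3.58.1 (R 4.3.3; empirical Bayes with trend; two-sided). It covered 14708 genes that reached 1 in 3 or more libraries. A call means a Benjamini-Hochberg p below 0.05. Levels were compared with exact sign-flip permutation tests. Tables and sequence searches used Python 3.11.15 with pandas 2.3.3 and numpy 2.4.6. Members and lists were chosen with earlier results of these data known. Named genes were all members, every called gene of a pathway list with its 2 highest and its 2 most different tested genes, Mir301, Ska2, and the 5 genes most like Pdk4. Some genes that this rule names are not reported here. Alternatives were other pseudocounts, no filter, rescaling, no trend, a replicate block and leaving out each library.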

Additional observations from a re-analysis of the deposited data

How the results depend on the processing

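In every one of the 12 alternatives, 0 of the 10 members and 0 of the tested pathway genes were called by limma. The log2 difference of Pdk4 was 0.87 with a pseudocount of 0.1 in place of 1, because a smaller pseudocount compresses low values less. Without any 1 library it was 0.60 to 0.78. The log2 differences of the other 9 members moved by less than the spread between libraries in all 108 refits. Most of these refits could not have moved by more. Leaving 1 library out of groups this small always shifts the difference by less than that spread. Fits with no filter or no trend return the same difference. Only the other pseudocounts, the rescaling and the replicate block could have moved it further, so the count of 108 says little. Medians of the pathway lists moved by more than the spread between libraries in 6 of 144. The order of levels kept 8 neighbouring pairs in the other pseudocounts and the rescaling, and also without any 1 library. That count could not have changed. Neither a pseudocount nor a rescaling alters which gene of a pair is higher within a library. Pairs that hold in all 6 libraries also hold with 1 left out. Pdk2 and Dld, in order in 4 of 6, stay mixed without any 1 library. The number of genes called over the whole table was 16, became 4 with no filter on low values, and ran from 4 to 17 without 1 library (4 and 6 without wild type 2-1 and 2-2, and 6 without knockout 2-2). The causes of these shifts in the number of calls were not tested.

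The title codes 1-1 and 2-2 occur in both genotypes. With the code as a replicate block, 0 genes were called and the log2 difference of Pdk4 was 0.79. Only the same-coded libraries enter that difference and few degrees of freedom are left, so the count of 0 says little. Same-coded libraries did not deviate together (r = −0.0986 and −0.0606 across genes), so the code is not taken as a pairing. Depth limits Pdk4 and Pdp2 most.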

Other observations

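Ratios between members were computed after their values had been seen and are given as values only. The summed kinase value over that of Pdha1, the kinases' substrate, was 0.978, 0.914 and 0.908 in wild type 1-1, 2-1 and 2-2, and 1.01, 1.03 and 1.02 in knockout 1-1, 2-2 and 3-1. The groups did not overlap, and Pdk2 makes up most of the sum. The value of Dlat over that of Pdha1 was 0.417, 0.435 and 0.379 in wild type 1-1, 2-1 and 2-2, and 0.516, 0.453 and 0.492 in knockout 1-1, 2-2 and 3-1, again without overlap, although Dlat itself overlapped. The ratio of Pdha1 to Pdhb was 0.888 to 0.911 in wild type and 0.851 to 0.957 in knockout, and that of summed kinases to summed phosphatases 3.36 to 3.97 and 3.52 to 4.17, both with overlap. For scale, the groups did not overlap for 11.4% of single tested genes, and the share among ratios of other genes was not computed.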
